A study of Mus musculus with 17 samples.

Results

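The genes described here are the 10 core members of the mammalian circadian clock in the deposited table. They are the activators Arntl and Clock, the nuclear receptors Nr1d1 and Nr1d2, the period genes Per1, Per2 and Per3, the cryptochromes Cry1 and Cry2, and the output gene Dbp. They were chosen by gene symbol, as 10 of the 13501 genes in the table, and all 10 were among the 12074 genes that passed the filter on low values. Bulk RNA sequencing had been made from living CD45+CD11b+ cells sorted from mouse brain, in 17 libraries of 5 groups, which are named here by the numbers in the table's columns (S20 to S36). Normal microglia (S20, S21 and S36) came from untreated wild-type mice without 5xFAD, a transgenic model of amyloid deposition in the brain whose transgenes are driven by a neuronal Thy1 promoter. Untreated 5xFAD mice gave microglia that were either Trem2 wild type (S22 to S24) or Trem2 knockout (S25 to S27). The other 2 groups were labelled circulation-derived myeloid cells and came from Trem2 knockout 5xFAD mice after bone marrow transplantation (BMT) with PLX5622, a CSF1R inhibitor that depletes microglia. Their donors were Trem2 wild type (S28 to S31) or Trem2 knockout (S32 to S35), and the hosts of both lacked Trem2. The labels' protocols name no donor marker in the sort, so a host cell with CD45 and CD11b would also have been collected. Cell origin and treatment changed together, and their parts in any difference between transplanted cells and microglia cannot be told apart. Wild-type-donor cells also came from hosts without Trem2, unlike wild-type 5xFAD microglia, so the part of the host's genotype cannot be told apart there either. Neither age nor hour of collection is given in the sources used here, so no library could be placed at a clock time, and whether the hour differed between groups was not tested.

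The clock is a loop of transcription factors that feed back on their own genes. The proteins of Arntl (BMAL1) and Clock pair up on E-boxes and activate the Per and Cry genes, Nr1d1, Nr1d2 and Dbp. PER and CRY proteins then repress that pair, while the receptors REV-ERBα (Nr1d1) and REV-ERBβ (Nr1d2) bind ROR elements and repress Arntl, so that in a running clock the Arntl transcript peaks when those of Nr1d1 and Dbp are low. DBP and its relatives TEF and HLF act on D-boxes, which Per genes carry, and macrophages and microglia are known to run this clock.

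The start-site windows of 3 members are shown, with words that match elements of this loop. These windows were chosen because Arntl and Per3 differed in opposite directions below and Nr1d1 encodes a repressor of Arntl. They were taken from RefSeq (build GRCm38.p6) and span 250 bases before to 50 after an annotated start. Capitals mark the motif found in each. These are a RORE core in the second Arntl window (chr7:113207261-113207560, plus strand), an E′-box in Nr1d1 (chr11:98775328-98775627, minus strand) and 2 D-boxes in Per3 (chr4:151044616-151044915, minus strand).
Arntl: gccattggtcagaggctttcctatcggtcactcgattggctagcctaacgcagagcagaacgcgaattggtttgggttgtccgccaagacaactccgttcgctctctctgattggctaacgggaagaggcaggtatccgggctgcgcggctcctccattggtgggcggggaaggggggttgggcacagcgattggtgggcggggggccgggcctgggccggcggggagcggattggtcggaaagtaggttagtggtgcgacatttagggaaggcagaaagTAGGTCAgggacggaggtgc
Nr1d1: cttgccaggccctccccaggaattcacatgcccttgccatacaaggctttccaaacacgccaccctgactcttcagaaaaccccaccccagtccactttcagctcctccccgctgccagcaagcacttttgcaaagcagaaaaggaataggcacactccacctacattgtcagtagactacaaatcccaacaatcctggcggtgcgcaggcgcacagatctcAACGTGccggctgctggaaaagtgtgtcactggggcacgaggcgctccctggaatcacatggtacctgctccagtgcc
Per3: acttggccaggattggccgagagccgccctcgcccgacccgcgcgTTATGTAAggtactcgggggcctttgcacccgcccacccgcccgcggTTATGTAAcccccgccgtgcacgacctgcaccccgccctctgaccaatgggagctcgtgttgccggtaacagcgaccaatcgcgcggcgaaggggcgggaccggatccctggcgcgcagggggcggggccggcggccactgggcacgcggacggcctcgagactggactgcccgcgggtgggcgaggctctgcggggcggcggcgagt
The search covered both strands for the E-box CACGTG, the E′-box CACGTT, the D-boxes TTATGTAA and TTACGTAA, the RORE cores TAGGTCA and TGGGTCA, and the cAMP element TGACGTCA. Windows were found for 9 of the 10 members (Per2 had none), 13 windows in all. The Arntl window carried TAGGTCA at bases 281 to 287, a word that 2.61% of all 32851 windows held. Nr1d1 carried the E′-box (read as AACGTG) at bases 223 to 228, and 4.68% of windows held it. Per3 carried TTATGTAA at bases 46 to 53 and again at 93 to 100, and 0.938% of windows held that word at least once. An E-box, held by 7.15% of windows, stood in a Per1 window at bases 85 to 90 and in the Cry1 window at 191 to 196. E′-boxes were in Cry1 at 172 to 177 and in Cry2 at 85 to 90. None of the words was in the windows of Nr1d2, Clock or Dbp, nor in the other Arntl window. A match describes the letters of the window and not a bound site.

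The deposited values are normalized read counts, that is, reads divided by 1 size factor per library, and levels below are in that unit. Libraries held 16044078 to 30606394 reads (median 19254498), and single members drew from 35 reads (Per3 in S34) to 1529 (Nr1d2 in S26). Trem2, the targeted gene, followed the labels, at 3962 to 5965 in the 7 knockout libraries and 31205 to 53908 in the other 10. Homeostatic microglia markers were present in all groups, with a summed level of 738629 to 945580 in microglia and 424587 to 511847 in transplanted cells. S26 stood apart within the knockout microglia: the chi-square per degree of freedom of its counts against S25 and S27 was 136.1 and 136.5, against 4.98 to 90.46 for every other pair within a group. Its Trem2 level was that of a knockout library, but nothing else in the files checks its label, and S26 is read below as labelled, with results given without it where they differ. S25 and S27 were the higher in neutrophil markers. Their summed level over 12 markers, 11 of them tested, was 52657 to 132567 in knockout microglia and 15083 to 35400 in the other groups, and 10 of 11 were higher in S25 and S27 than in any other library, as were 8 of 9 monocyte markers. S30 and S31 were the higher in oligodendrocyte markers, with a summed level over 9 markers of 24251 and 24505 against 4531 to 11097 elsewhere, and 7 of 9 were higher there than in any other library. In the neutrophil and oligodendrocyte lists Elane, Mpo, Cldn11, Ermn, Mal and Mog were listed at 0 in 1 to 7 libraries. S22 with S23, S25 with S27 and S30 with S31 were the closest pairs (chi-square per degree of freedom 6.21, 9.86 and 4.98), and the labels do not say whether libraries are separate animals, so that p-values measure only the spread between these samples, which may be technical.

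Per kilobase of exon (GENCODE vM21), Nr1d2 was the most abundant member, with a mean of 173.7 normalized reads per kb over the 17 libraries, and Per3 the least, at 9.30. Between them lay Dbp at 127, Nr1d1 at 92.3, Per1 at 71.3, Cry1 at 54.4, Cry2 at 38.5, Arntl at 35.5, Clock at 23.3 and Per2 at 21. The highest library exceeded the lowest by 3.16-fold in Cry1 and by 12.6-fold in Per2, with the other 8 members between. Bulk values cannot tell fewer cells of a type from less RNA per cell.

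**Figure D1:**
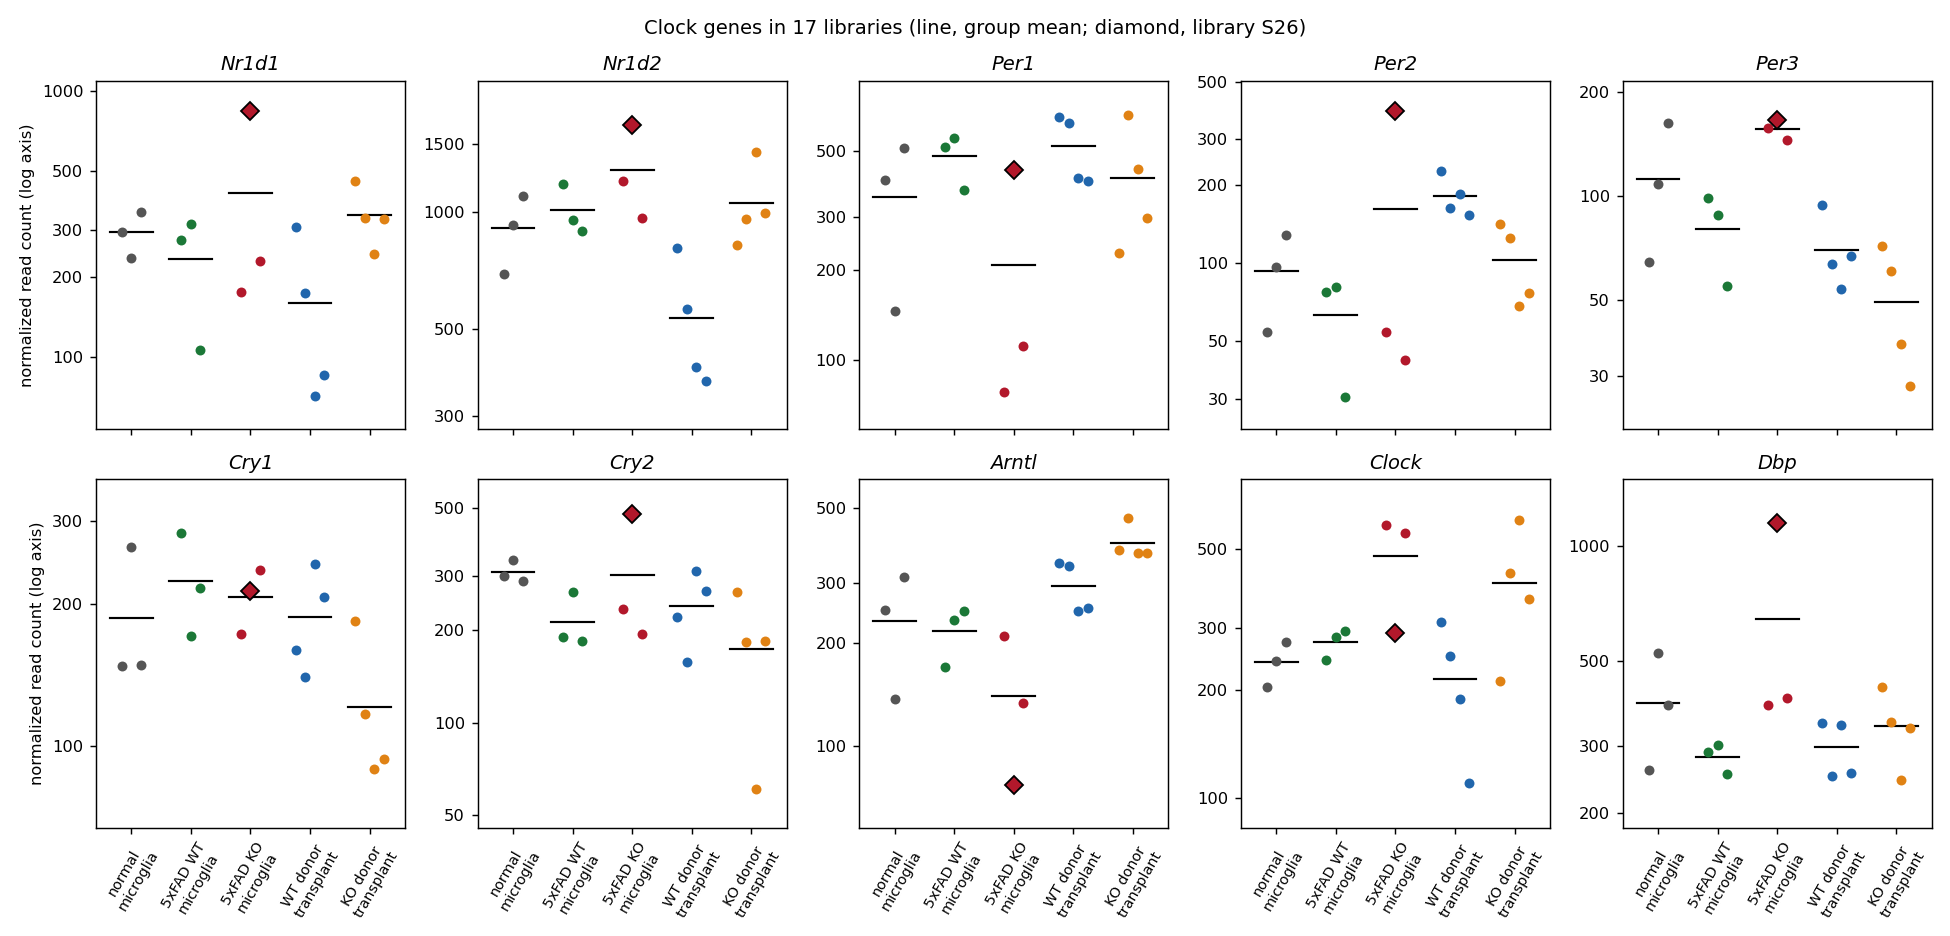
Normalized read counts (log axes) of the 10 clock genes in every library, by group, with a line at the group mean and a diamond for library S26. S26 is the highest point for Nr1d1, Nr1d2, Per2, Per3, Cry2 and Dbp and the lowest for Arntl, while the transplant groups sit above the knockout microglia for Arntl and below them for Per3.

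The differences most stable to the processing were in Arntl, Per3 and Nr1d2, each against Trem2 knockout microglia. In that group, S26 was the lowest of all 17 libraries for Arntl and the highest for Per3 and Nr1d2. Arntl was higher in transplanted cells of both donor genotypes than in Trem2 knockout microglia, by 3.03-fold and 2.25-fold, Per3 was lower in knockout-donor cells than in knockout microglia, at 0.302 of their level, and Nr1d2 was lower in wild-type-donor cells, at 0.408 of the level of knockout microglia. These 4 differences passed under every alternative analysis that was run, while each other call between 2 groups was lost under at least 1 of them. All differences here are log2 differences on log2(normalized count + 1) from 1 limma model of all 17 libraries, with its standard error (SE) and a p-value adjusted over all 12074 genes by the Benjamini-Hochberg method, and a gene was called at an adjusted p under 0.05.

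For any difference among the 5 groups (limma's moderated F test), 4 of the 10 members passed, against 47.3% of all tested genes. They were Nr1d2 (adjusted p = 0.00362), Arntl (0.00382), Per3 (0.00714) and Clock (0.0443). The first 3 passed with any single library left out, though Nr1d2 did not without both S30 and S31 (adjusted p = 0.110), whereas Clock passed in 4 of 17 such fits, with adjusted p from 0.00902 to 0.112. The other 6 members gave adjusted p from 0.0600 (Per1) to 0.182 (Cry2).

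Among untreated microglia no member was called. Wild-type 5xFAD against normal microglia gave 0 of 10 members, where 3.78% of all tested genes were called. None reached an unadjusted p under 0.05 there, where 1955 of the 12074 genes did. Both edgeR and DESeq2 on the recovered reads also called 0. Trem2 knockout 5xFAD against normal microglia gave 0 of 10, against 3.91% of genes, with 0 called by edgeR and by DESeq2. An unadjusted p under 0.05 was reached by 2 members (Clock higher and Arntl lower in the knockout) and by 3462 of the 12074 genes. Trem2 wild-type against knockout 5xFAD microglia gave 0 of 10, against 5.09% of genes, with 0 called by edgeR and 1 (Dbp) by DESeq2. There 4 members and 2626 of the 12074 genes were at an unadjusted p under 0.05. Without S26 the second and the third of these comparisons each called 2 members, Per1 and Clock, but 38.2% and 30.5% of all tested genes were then called, so that 2 of 10 was below the general share. The median log2 difference of the members was -0.22, 0.17 and -0.52 in the 3 comparisons, beside 0.00, 0.03 and 0.01 over all tested genes.

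Comparisons with transplanted cells called more genes in general. Wild-type against knockout donors gave 1 of 10 members, lower with the wild-type donor, where 6.74% of all genes were called and 2.99% in that direction. Wild-type-donor cells against wild-type 5xFAD microglia gave 2 of 10, against 28.2% of genes, with 1 higher (13.6% of genes) and 1 lower (14.6%). Knockout-donor cells against knockout microglia gave 3 of 10, against 25.4% of genes, with 1 higher (11.7%) and 2 lower (13.7%). Wild-type-donor cells against knockout microglia gave 6 of 10, against 35.1% of genes, with 2 higher (17.3%) and 4 lower (17.8%). The first 3 shares are near those of all genes. In the last comparison 4 members were called without S25 and 4 without S27, and the share of all genes in those fits is not given here. Without S26 it called 6 members, against 48.8% of genes. The members' median log2 differences were 0.13, -0.06, -0.27 and -0.60 in these 4 comparisons, beside 0.05, -0.03, -0.02 and -0.01 over all genes. The interaction asks whether the Trem2 difference was unlike in transplanted cells and microglia. It gave 0 of 10 members against 2.82% of genes, with 0 called by edgeR and by DESeq2. Of the 12074 genes, 2204 were at an unadjusted p under 0.05, among them 2 members (Per3 and Arntl). In the interaction, Trem2 differed in the donor only for transplanted cells but in the whole animal for microglia. The comparisons share groups, and their counts are not independent. Markers of other cells also differed between transplanted cells and microglia. The summed level of 7 border macrophage markers was 33535 to 47773 in transplanted cells and 3429 to 8918 in microglia, and that of 7 astrocyte markers 546 to 1079 and 4357 to 7840, with no marker of either list at 0. Sums weigh the most abundant genes most. The mean log2 level of the 7 border macrophage markers overlapped, at 10.07 in S36 (normal microglia) against 10.05 in S29 and S33 (transplanted cells). The sum of 9 tested T and NK cell markers was 1665 to 3824 in knockout-donor cells, 339 to 2859 in wild-type-donor cells and 186 to 1575 in microglia, with Cd8a at 0 in 1 library. The part of these cells in the differences of the clock genes was not tested.

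**Figure D2:**
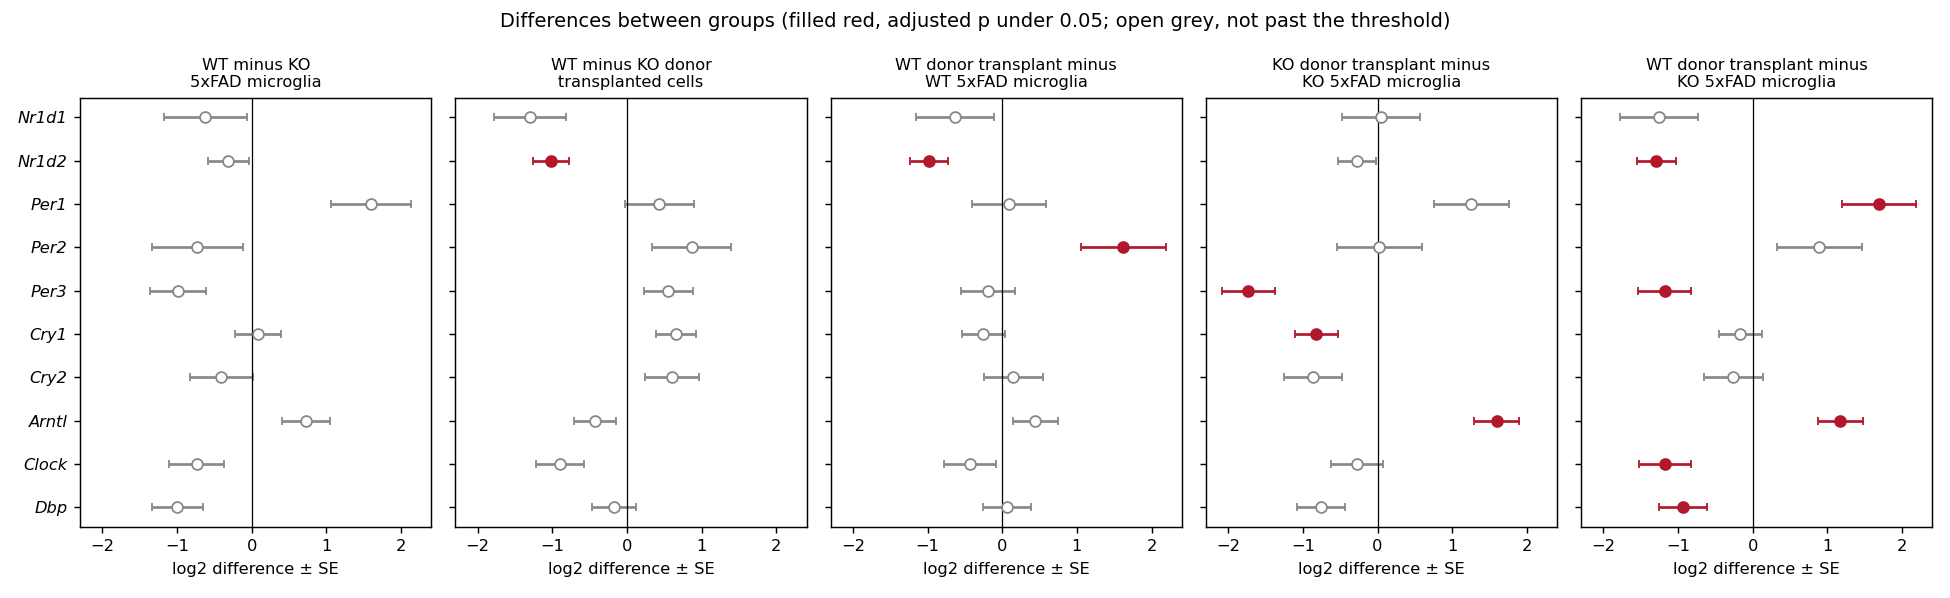
Log2 difference ± SE of each clock gene in 5 comparisons between groups (limma on log2 of the normalized count plus 1), with genes past an adjusted p of 0.05 filled in red. Arntl lies to the right in both comparisons of transplanted cells with knockout microglia (1.60 and 1.17), while Per3 lies to the left in both (-1.73 and -1.18).

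Arntl, whose protein BMAL1 is the DNA-binding partner of CLOCK (GRCm38 chr7:113207465-113314126, plus strand, as all gene positions here from GENCODE vM21), was the member that most clearly separated transplanted cells from knockout microglia. It stood at 211 (S25), 76.6 (S26) and 133 (S27) in knockout microglia, 170.0 (S22), 235 (S23) and 249 (S24) in wild-type 5xFAD microglia and 250.2 (S20), 137 (S21) and 313 (S36) in normal microglia. Transplanted cells had 344 (S28), 337 (S29), 248 (S30) and 254 (S31) with wild-type donors and 377 (S32), 467 (S33), 369 (S34) and 369 (S35) with knockout donors. Every transplant library lay above all 3 knockout microglia libraries, and the 4 knockout-donor libraries lay above all others. Group means ran from 140.2 ± 67.3 (SD, n = 3) in knockout microglia through 218 ± 42.1 (n = 3) in the wild type with 5xFAD and 233 ± 89.0 (n = 3) in normal mice to 296 ± 51.8 (n = 4) and 396 ± 47.6 (n = 4) with wild-type and knockout donors. Of these neighbours in order, only the 2 donor groups did not overlap. Knockout-donor cells exceeded knockout microglia by 1.60 (SE 0.301, adjusted p = 0.000623), and wild-type-donor cells by 1.17 (SE 0.301, adjusted p = 0.00628). Part of both differences came with S26, where Arntl was lowest: without it they were 1.23 (adjusted p = 0.00266) and 0.80 (adjusted p = 0.0268). Wild-type-donor cells against wild-type microglia gave 0.44 (SE 0.301, adjusted p = 0.295), and the 2 donor genotypes differed by -0.43 (SE 0.279, adjusted p = 0.331) without passing the test.

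Clock (chr5:76209868-76304792, minus strand) encodes the partner of BMAL1 and did not follow Arntl. Its levels were 583 (S25), 289 (S26) and 555 (S27) in knockout microglia, 243 (S22), 282 (S23) and 294 (S24) in wild-type 5xFAD microglia and 204 (S20), 243 (S21) and 274 (S36) in normal microglia. Wild-type-donor cells had 312 (S28), 250.2 (S29), 189 (S30) and 109.8 (S31) and knockout-donor cells 212 (S32), 428 (S33), 602 (S34) and 362 (S35). All knockout microglia libraries were above the normal ones, but S26 was close to the wild-type microglia, and the 2 donor groups overlapped widely. With all libraries in limma, Clock was called only as lower in wild-type-donor cells than in knockout microglia, with a difference of -1.17 (SE 0.347, adjusted p = 0.0145). That call was lost without S25 (-0.99, adjusted p = 0.0780) or without S27 (-1.03, adjusted p = 0.0684), the libraries high in neutrophil markers. Without both the difference was -0.52. The call was also lost without both S30 and S31 (-0.70, adjusted p = 0.173), the libraries high in oligodendrocyte markers. Averaging the closest pairs ended it too (-0.85, adjusted p = 0.165). The part of those cells in the difference was not tested. The difference between donors, -0.90 (SE 0.321, adjusted p = 0.0896), was called by DESeq2 (-0.90, adjusted p = 0.0393) and in limma without S26 (adjusted p = 0.0479), S28 (-1.11, adjusted p = 0.0330) or S32 (-1.17, adjusted p = 0.0366). With S26 left out, Clock was also higher in knockout than in normal microglia by 1.25 (adjusted p = 0.0152).

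Nr1d2, the REV-ERBβ receptor that represses Arntl (chr14:18204054-18239127, minus strand), was lowest in wild-type-donor cells. These libraries had 809.7 (S28), 563 (S29), 399.6 (S30) and 369.6 (S31), and knockout-donor cells 824 (S32), 963 (S33), 1433 (S34) and 998 (S35). Microglia had 1204 (S25), 1673 (S26) and 967 (S27) in the knockout, 1185 (S22), 958 (S23) and 895 (S24) in the Trem2 wild type with 5xFAD and 696 (S20), 927 (S21) and 1103 (S36) in normal mice. The wild-type-donor group overlapped neither the knockout-donor group nor either 5xFAD microglia group, though S28 was close to the lowest knockout-donor library, S32. Its mean was 535 ± 202 (SD, n = 4), against 1054 ± 263 (n = 4) with knockout donors, 1281 ± 360 (n = 3) in knockout and 1013 ± 152 (n = 3) in wild-type 5xFAD microglia. The difference from knockout microglia was -1.29 (SE 0.258, adjusted p = 0.000900), from wild-type microglia -0.98 (SE 0.258, adjusted p = 0.00793) and from knockout donors -1.02 (SE 0.239, adjusted p = 0.0241). With S26 left out, the difference from knockout microglia was -1.08 (adjusted p = 0.00354). Nr1d2 was lowest in S30 and S31, the libraries with the most oligodendrocyte transcript, whose part in it was not tested. Without both, the differences were -0.89 (adjusted p = 0.0269), -0.57 (adjusted p = 0.165) and -0.61 (adjusted p = 0.377). The donor difference was also lost without S30 alone (-0.90, adjusted p = 0.0972), S31 (-0.86, adjusted p = 0.0955) or S34 (-0.86, adjusted p = 0.0757).

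Nr1d1 (chr11:98767932-98775333, minus strand) encodes the sister receptor REV-ERBα and varied widely between libraries of a group. It was at 309 (S28), 174 (S29), 71.0 (S30) and 85.4 (S31) with wild-type donors and 460.4 (S32), 332 (S33), 243 (S34) and 329 (S35) with knockout donors. The microglia values were 175 (S25), 842 (S26) and 229 (S27) in knockout, 275 (S22), 317 (S23) and 105 (S24) in wild-type 5xFAD and 294 (S20), 236 (S21) and 352 (S36) in normal mice. S26 alone was several times its 2 group mates, S30 and S31 were the lowest of all, and every pair of neighbouring groups overlapped. No comparison was called with all libraries in limma. The donor difference was -1.30 (SE 0.484, adjusted p = 0.102), and it passed with S26 left out (-1.30, adjusted p = 0.0380) or S28 (-1.70, adjusted p = 0.0259). Wild-type-donor cells against knockout microglia gave -1.26 (SE 0.523, adjusted p = 0.0695), which passed in edgeR (-1.41, adjusted p = 0.0485) and without S25 (-1.70, adjusted p = 0.0382), without S28 (-1.66, adjusted p = 0.0180) and without both S25 and S27 (-2.64, adjusted p = 0.00724). Nr1d1 shares 1075 bases with Thra on the opposite strand (62 to 187 normalized reads), and whether reads were assigned by strand is not given in the sources used here.

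Per1, a repressor that also answers acute signals (chr11:69095217-69109960, plus strand), was called only as higher in wild-type-donor cells than in knockout microglia, by 1.69 (SE 0.499, adjusted p = 0.0145). Knockout microglia had 78.1 (S25), 433 (S26) and 112 (S27), wild-type 5xFAD microglia 515 (S22), 555 (S23) and 372 (S24) and normal microglia 399 (S20), 146 (S21) and 513 (S36). Wild-type-donor cells had 649.8 (S28), 622 (S29), 407 (S30) and 396 (S31) and knockout-donor cells 228 (S32), 661 (S33), 437 (S34) and 299 (S35). S25 and S27 were the lowest of all libraries, while S26 was among the wild-type microglia. The call therefore rested on S25 and S27. With all libraries kept, edgeR (1.27, adjusted p = 0.0663) and DESeq2 (1.32, adjusted p = 0.0531) did not make it. It was lost without S25 (1.2, adjusted p = 0.108) or S27 (1.45, adjusted p = 0.0715), and without both the difference was 0.22. Left out instead, S26 gave 2.42 (adjusted p = 0.000232), and Per1 then also passed in knockout against normal microglia (-1.72, adjusted p = 0.00704), wild-type against knockout microglia (2.33, adjusted p = 0.00165), knockout-donor cells against knockout microglia (1.99, adjusted p = 0.00153) and the interaction (-1.90, adjusted p = 0.0356). S25 and S27 differed from S26 in neutrophil markers (above) and in 12 immediate early genes of tissue dissociation, whose summed level was 67524 and 64510 against 116903 in S26, with none at 0 in any library. The summed immediate early level was 132014 to 154031 in wild-type 5xFAD microglia, 108436 to 181384 in wild-type-donor cells, 71166 to 109504 in knockout-donor cells and 55265 to 86172 in normal microglia. S25 and S27 were among the lower libraries in both this sum and Per1, while S36, with the lowest sum of all, had one of the higher Per1 values. The part of neither list in the Per1 values was tested.

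Of the 12073 other tested genes, the one whose pattern over the 17 libraries was nearest to Per1 was Tsc22d3, which encodes the leucine zipper protein GILZ (Pearson r = 0.91 of log2 values). Tsc22d3 was at 2542 in S25 and 2565 in S27 and at 4773 to 11657 in the other 15 libraries. It was the second nearest when group means were removed (r = 0.93), and the third when S26 was also left out (r = 0.87). Tsc22d3 was itself higher in wild-type-donor cells than in knockout microglia, by 1.01 (SE 0.370, adjusted p = 0.0418), and in knockout-donor cells by 1.13 (SE 0.370, adjusted p = 0.0315). Both calls were lost without S25 (adjusted p = 0.226 and 0.182) or S27 (0.215 and 0.181), and without both libraries the differences were -0.26 and -0.14. The first was also lost without S20, S22, S23, S28, S29, S30 or S31, and the second without S33 or S34. The libraries share groups, depth and cell make-up, and r is given as a description.

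**Figure D3:**
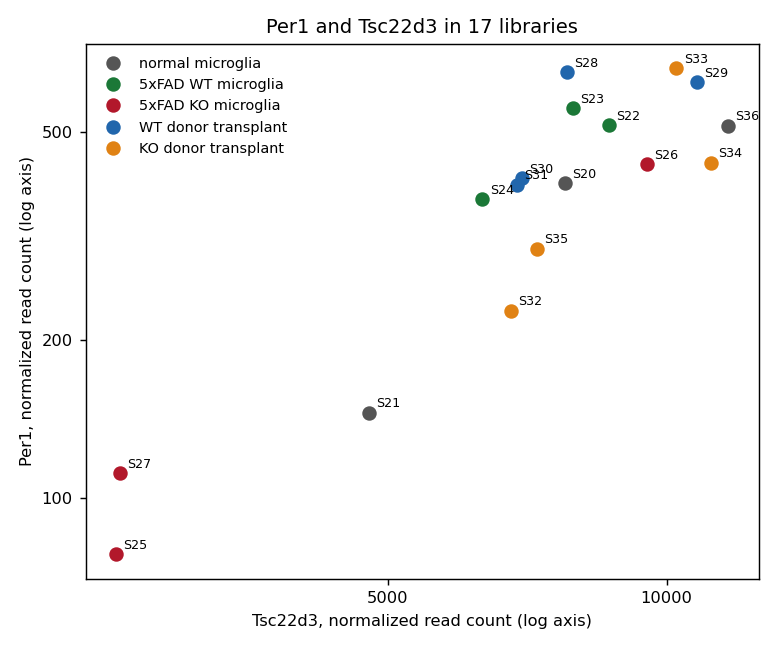
Per1 against Tsc22d3, normalized read counts in 17 libraries on log axes, coloured by group. S25 and S27 lie together at the lower left (Per1 78.1 and 112, Tsc22d3 2542 and 2565), apart from their group mate S26 at the upper right.

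Per2, the period gene with the widest range (chr1:91415982-91459324, minus strand), was highest in S26 and, apart from it, in wild-type-donor cells. Knockout microglia had 54.5 (S25), 386 (S26) and 42.3 (S27), wild-type 5xFAD microglia 77.6 (S22), 80.6 (S23) and 30.6 (S24) and normal microglia 54.3 (S20), 97.0 (S21) and 128 (S36). Wild-type-donor cells had 226 (S28), 163 (S29), 185 (S30) and 154 (S31), above all 4 knockout-donor libraries at 142 (S32), 125 (S33), 68.2 (S34) and 76.9 (S35). Wild-type-donor cells exceeded wild-type microglia without overlap, by 1.62 (SE 0.571, adjusted p = 0.0410), with means of 182 ± 32.2 (SD, n = 4) and 62.9 ± 28 (n = 3). That call was lost without any single library of either group, with adjusted p from 0.0541 (S23) to 0.196 (S24, where Per2 was lowest and the difference became 1.18), and edgeR gave 0.0746. The large spread of knockout microglia entered the shared estimate of error: without S26 the same difference had an adjusted p of 0.00218. Per2 was then also higher in wild-type-donor cells than in the remaining knockout microglia, by 1.88 (adjusted p = 0.00139), against 0.89 (adjusted p = 0.236) with S26.

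Per3, the least abundant member (chr4:151003652-151044665, minus strand), was the period gene with the steadiest difference. It was at 157 (S25), 165 (S26) and 145 (S27) in knockout microglia, 98.3 (S22), 88.1 (S23) and 54.7 (S24) in wild-type 5xFAD microglia and 64.3 (S20), 108 (S21) and 162 (S36) in normal microglia. Wild-type-donor cells had 93.9 (S28), 63.7 (S29), 53.9 (S30) and 67.1 (S31) and knockout-donor cells 71.4 (S32), 60.7 (S33), 37.3 (S34) and 28.1 (S35). The knockout microglia, S26 included, lay above every transplant library and above the wild-type 5xFAD microglia. Means were 156 ± 10.1 (SD, n = 3) in knockout microglia against 69.6 ± 17.1 (n = 4) and 49.4 ± 20.1 (n = 4) in wild-type-donor and knockout-donor cells. Knockout-donor cells were lower than knockout microglia, with a difference of -1.73 (SE 0.356, adjusted p = 0.00134), a call kept in 17 of 17 fits that left out a library (-1.94 to -1.50). Wild-type-donor cells were lower, with a difference of -1.18 (SE 0.356, adjusted p = 0.0162), a call lost without S25 (-1.17, adjusted p = 0.0510). That call was also lost with the closest pairs averaged (-1.14, adjusted p = 0.1) and without both S30 and S31 (-1.0, adjusted p = 0.109). Against wild-type 5xFAD microglia, wild-type-donor cells overlapped and were not called lower, with a difference of -0.19 (SE 0.356, adjusted p = 0.732). Wild-type against knockout microglia gave -0.99 (SE 0.380, adjusted p = 0.145), and the interaction 1.54 (SE 0.503, adjusted p = 0.107). Per3 lies within Camta1 on the same strand in the annotation, and Camta1 was at 46.0 to 146 and called in no comparison.

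The cryptochromes repress CLOCK and BMAL1 together with the PER proteins, and Cry1 had the narrowest range of the 10 members. Cry1 (chr10:85131700-85185064, minus strand) was at 184 (S32), 117 (S33), 89.5 (S34) and 94.1 (S35) in knockout-donor cells and 159.9 (S28), 139.9 (S29), 243 (S30) and 207 (S31) in wild-type-donor cells. It was at 173 (S25), 213 (S26) and 236 (S27) in knockout, 283 (S22), 171 (S23) and 217 (S24) in wild-type 5xFAD and 148 (S20), 264 (S21) and 148 (S36) in normal microglia. S33 to S35 were the 3 lowest libraries of all, but S32 overlapped the microglia. Knockout-donor cells were called lower than knockout microglia, with a difference of -0.82 (SE 0.289, adjusted p = 0.0446), near the threshold: 8 of 17 single libraries, left out in turn, ended the call (S24, S25, S26, S27, S31, S33, S34 or S35, adjusted p 0.0509 to 0.153).

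Cry2 (chr2:92403646-92434043, minus strand) was called in no comparison. It was at 301 (S20), 339 (S21) and 290.0 (S36) in normal microglia, above all 3 wild-type 5xFAD libraries at 189.7 (S22), 267 (S23) and 184 (S24), a difference of -0.55 (SE 0.421, adjusted p = 0.585). Knockout microglia had 235 (S25), 477 (S26) and 195 (S27). Transplanted cells had 221 (S28), 158 (S29), 313 (S30) and 269.6 (S31) with wild-type donors and 266 (S32), 184 (S33), 60.7 (S34) and 185 (S35) with knockout donors. S26 was the highest library and S34 the lowest. With S32 left out, knockout-donor cells were called lower than knockout microglia, with a difference of -1.13 (adjusted p = 0.0482), against -0.86 (SE 0.394, adjusted p = 0.121) with all libraries.

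Dbp, a transcription factor whose transcript is a direct output of CLOCK and BMAL1 (chr7:45705088-45710203, plus strand), was level in most libraries. It was at 258 (S20), 525 (S21) and 383 (S36) in normal, 289 (S22), 301 (S23) and 253 (S24) in wild-type 5xFAD and 382 (S25), 1150.3 (S26) and 401 (S27) in knockout microglia. Transplanted cells had 344 (S28), 249 (S29), 339 (S30) and 255 (S31) with wild-type donors and 429 (S32), 345 (S33), 244 (S34) and 334 (S35) with knockout donors. S26 was far above the other libraries, and all 3 knockout microglia lay above the wild-type 5xFAD microglia and above the wild-type-donor cells. Wild-type-donor cells were called lower than knockout microglia, with a difference of -0.93 (SE 0.319, adjusted p = 0.0306). Without S26 the difference was -0.42 (adjusted p = 0.183), and the call was also lost without S29 (-0.85, adjusted p = 0.0714) or S31 (-0.87, adjusted p = 0.0708). Wild-type against knockout microglia gave -1.0 (SE 0.341, adjusted p = 0.103) in limma, -0.48 (adjusted p = 0.176) without S26, and -1.2 (adjusted p = 0.0144) in DESeq2. Knockout-donor cells against knockout microglia gave -0.76 (SE 0.319, adjusted p = 0.0929) in limma, and -0.24 (adjusted p = 0.469) without S26. That difference passed in edgeR (-0.92, adjusted p = 0.0437), in DESeq2 (-0.93, adjusted p = 0.0215) and in limma without S25 (-1.03, adjusted p = 0.0428). Dbp shares 737 bases with Sphk2 on the opposite strand, whose level was 949 to 2266.

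S26 was the highest of the 17 libraries for 6 of the 10 members (Nr1d1, Nr1d2, Per2, Per3, Cry2 and Dbp) and the lowest for Arntl, a count made after its values were seen. Over all tested genes, S26 was the highest library for 4.75% and the lowest for 6.20%. Against the mean of its group mates S25 and S27, S26 had 7.99 times the Per2, 4.57 times the Per1, 4.17 times the Nr1d1, 2.94 times the Dbp and 2.22 times the Cry2. Nr1d2 was 1.54 times as high, Per3 1.09 and Cry1 1.04 times, Clock 0.508 and Arntl 0.445 times. Ratios within a library do not depend on its size factor. The log2 ratio of Dbp to Arntl was 3.91 in S26 and -0.60 to 1.94 in the other 16 libraries, and that of Per2 to Arntl was 2.33 against -3.02 to -0.42. For Nr1d1 it was 3.46 against -1.81 to 0.78, and for Nr1d2 4.45 against 0.54 to 2.86. S26 was the highest library for these genes and the lowest for Arntl. Its top rank in these ratios therefore follows from those values and is no separate result.

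Outside S26 the same ratios varied less. The ratio of Nr1d2 to Arntl was 0.54 to 1.96 in the 8 transplant libraries and 1.48 to 2.86 in the other 8 microglia libraries. In normal microglia, S21 had the lowest Arntl (137) and the highest Dbp (525) of its group, with a Dbp to Arntl ratio of 1.94 against 0.05 and 0.29 in S20 and S36. Cry1 (264) and Cry2 (339) were also highest in S21, but Nr1d1 (236) and Per1 (146) were lowest there. S26 also had fewer transcripts of the 10 disease-associated microglia markers than its group mates, with a summed level of 126949 against 224121 and 233214, beside 98071 to 118274 in normal and 281315 to 297258 in wild-type 5xFAD microglia, with none of the markers at 0. Its summed neutrophil markers were 52657 against 123103 and 132567. The part of these cells or states in the clock values of S26 was not tested.

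**Figure D4:**
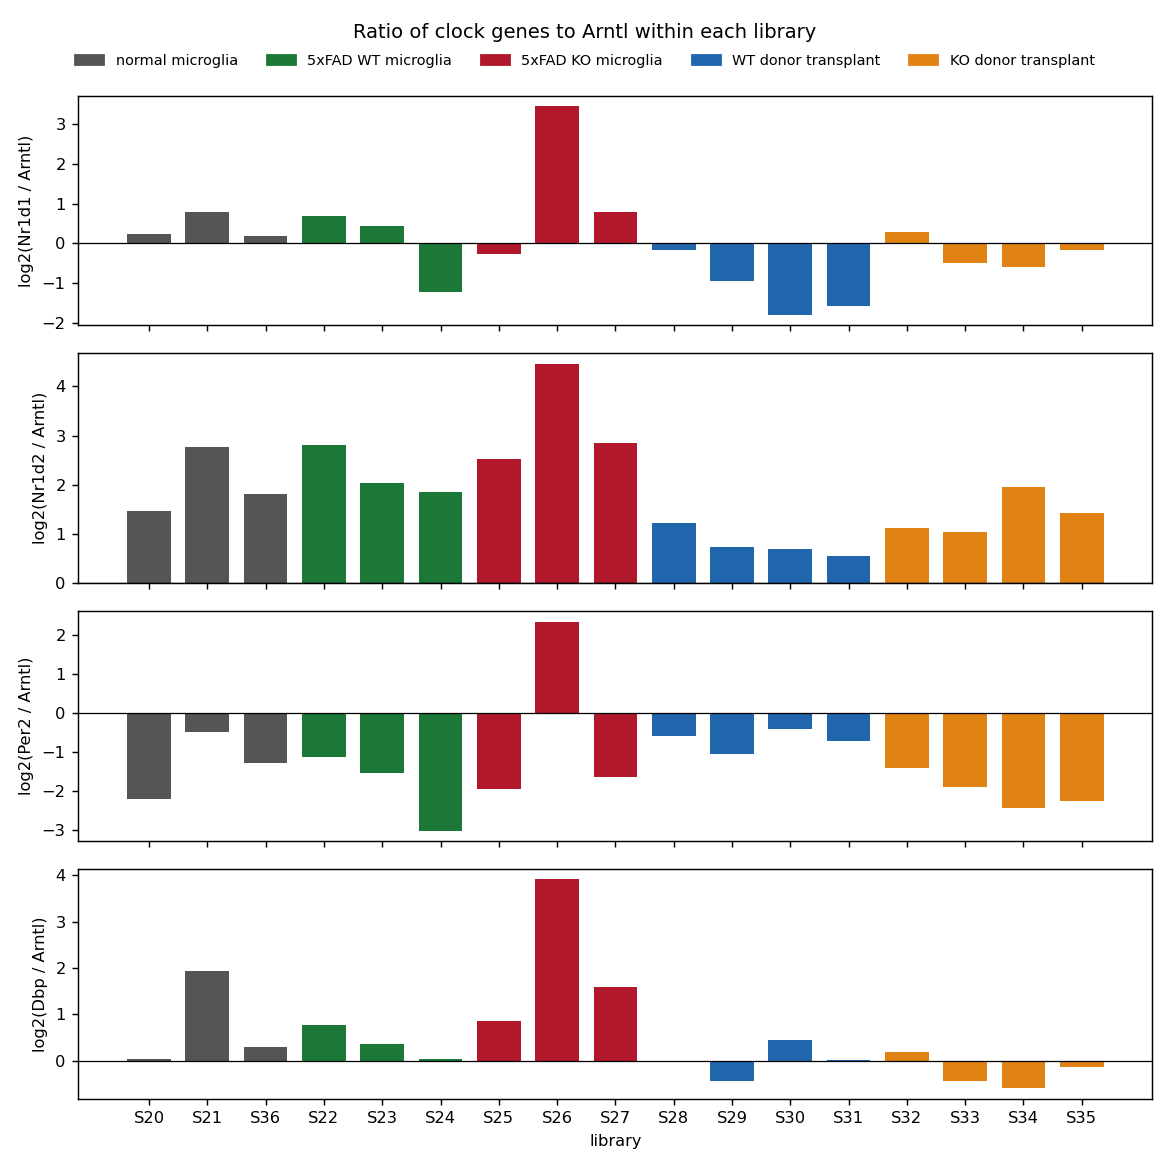
Log2 ratio of Nr1d1, Nr1d2, Per2 and Dbp to Arntl within each library, bars coloured by group. S26 reaches 3.46, 4.45, 2.33 and 3.91 in the 4 panels. It must be the highest bar in each, being the highest library for these genes and the lowest for Arntl.

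When members were compared with all 12073 other genes by Pearson r of log2 values over the 17 libraries, Dbp had 3 members among its 36 nearest genes, Cry2 at rank 22 (r = 0.61), Nr1d1 at 28 (0.60) and Per3 at 36 (0.58), with Tef at 33 (0.58). Arntl was near the far end of the same order, at rank 12050 of 12073 (r = -0.66). No member other than Dbp had a fellow member among its 36 nearest genes. The closest was Nr1d2 for Nr1d1, at rank 42 (r = 0.71), and for the rest such ranks began at 448 (Nr1d1 for Nr1d2). With group means removed, Per2 was the fourth nearest gene to Dbp and Tef the fifth (both r = 0.88). With S26 also left out, Per2 was at rank 48 for Dbp (r = 0.69), and Dbp to Arntl went from r = -0.65 to -0.35 and Dbp to Nr1d1 from 0.60 to 0.25. Dbp to Cry2 went from 0.71 to 0.62, and Dbp to Per3 from 0.40 to 0.56. Per2 and Per3 were each other's nearest gene of all 12073 in that setting only (r = 0.88 over 16 libraries). With S26 kept and group means removed, r was 0.56 (Per3 at rank 1895 for Per2, Per2 at rank 115 for Per3). Over the 17 libraries it was 0.17 (ranks 4253 and 4267). For the other members called in a comparison, the nearest gene over the 17 libraries was Cggbp1 for Nr1d2 (r = 0.90), Pgap1 for Arntl (0.85), Phip for Clock (0.93), Setd4 for Per2 (0.80), Ngef for Per3 (0.89), Bicc1 for Cry1 (0.83) and Tmem203 for Dbp (0.72). These values describe 17 libraries that share groups and preparation.

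The rest of the pathway was read from a list of 40 further genes, of which 35 were in the table and 33 were tested. For any difference among groups 16 of 33 passed, near the 47.3% of all genes. In wild-type 5xFAD against normal microglia 3 were called higher and 0 lower, in knockout 5xFAD against normal 1 higher, in wild-type against knockout microglia 3 higher, and between donors 1 lower. Wild-type-donor cells against wild-type microglia gave 2 higher and 7 lower, knockout-donor cells against knockout microglia 3 higher and 5 lower, wild-type-donor cells against knockout microglia 3 higher and 9 lower, and the interaction 2 lower. As shares of the 33 these calls were 9.09%, 3.03%, 9.09%, 3.03%, 27.3%, 24.2%, 36.4% and 6.06%, beside 3.78%, 3.91%, 5.09%, 6.74%, 28.2%, 25.4%, 35.1% and 2.82% of all genes. The list's median log2 differences in these 8 comparisons were 0.11, 0.06, 0.07, -0.03, -0.23, 0.09, -0.29 and -0.23, with all genes between -0.03 and 0.05.

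Hlf, a D-box factor related to Dbp, fell to very low levels in transplanted cells. It was at 125 (S20), 154 (S21) and 164 (S36) in normal, 111 (S22), 83.6 (S23) and 49.5 (S24) in wild-type 5xFAD and 15.4 (S25), 197 (S26) and 73.7 (S27) in knockout microglia. In wild-type-donor cells it was at 4.47 (S28), 1.14 (S29), 10.5 (S30) and 3.66 (S31) and in knockout-donor cells at 4.83 (S32), 2.80 (S33), 1.07 (S34) and 6.18 (S35). All 9 microglia libraries lay above all 8 transplant libraries, which held 1 to 9 reads each. The astrocyte markers, given above, differed between the same groups, Slc1a3 being at 3241 to 4930 in microglia and 122 to 326 in transplanted cells, and their part in the Hlf difference was not tested. The log2 differences, which understate the change of so low a gene, were -3.97 (SE 0.704, adjusted p = 0.000320) against wild-type and -3.87 (SE 0.704, adjusted p = 0.000447) between the knockout groups. Tef, the third factor of that family, was lower in knockout-donor cells than in knockout microglia, with a difference of -0.98 (SE 0.298, adjusted p = 0.0211). That call was lost without S26 (-0.45, adjusted p = 0.0938) or S34 (-0.77, adjusted p = 0.0581), and at 3885 in S26 Tef exceeded the other 16 libraries (617 to 2583).

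Csnk1e and Usp2, an enzyme that phosphorylates PER proteins and one that removes ubiquitin from clock proteins, were lower in transplanted cells. Csnk1e had group means of 3903, 3710 and 3160 in normal, wild-type 5xFAD and knockout microglia and 1740.5 and 1720.0 in wild-type-donor and knockout-donor cells. The differences were -1.10 (SE 0.119, adjusted p = 1.14e-06) between the wild-type groups and -0.87 (SE 0.119, adjusted p = 2.28e-05) between the knockout groups, without overlap in either. Usp2 means were 4631, 3729 and 3607 in the microglia and 1961 and 2511 in the transplanted cells, with differences of -0.93 (adjusted p = 3.71e-05) and -0.52 (adjusted p = 0.00831). Rora, the receptor that competes with the REV-ERB proteins and activates Arntl, was higher in wild-type-donor cells than in wild-type microglia, by 0.66 (SE 0.210, adjusted p = 0.0259), a call lost without S22, S23, S28 or S31 (adjusted p 0.0502 to 0.108), and had its highest group mean in knockout-donor cells (191).

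Bhlhe40, which encodes the E-box repressor DEC1, moved in microglia in which no core member was called. Normal microglia had a mean of 114 ± 52.4 (SD, n = 3), those of Trem2 wild-type 5xFAD mice 780.2 ± 53.2 (n = 3) and those of knockout 5xFAD mice 197 ± 53.9 (n = 3). Wild-type 5xFAD exceeded normal microglia by 2.86 (SE 0.336, adjusted p = 4.07e-05) and knockout microglia by 2.02 (SE 0.336, adjusted p = 0.00116), with no overlap in either. Transplanted cells had 618 ± 206 (n = 4) with wild-type and 559.7 ± 148 (n = 4) with knockout donors, a difference of 0.12 (SE 0.291, adjusted p = 0.814), and the interaction was -1.90 (SE 0.444, adjusted p = 0.0254), lost without S22, S23, S24, S33 or S35 (adjusted p 0.0522 to 0.0655). Id2, an inhibitor of helix-loop-helix factors, was higher in both 5xFAD microglia groups than in normal microglia, by 0.87 (adjusted p = 0.0259) in the wild type and 0.89 (adjusted p = 0.0329) in the knockout. Both calls were lost when any of several single libraries was left out: S21, S22, S23, S24 or S36 for the wild type (adjusted p 0.0603 to 0.124) and S20, S21, S25, S27 or S36 for the knockout (0.0697 to 0.231).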

How the data were processed

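RNA from DAPI-negative CD45+CD11b+ brain cells, sorted into TRIzol LS, had been made into SMART-Seq v4 libraries and sequenced on a NovaSeq, per the labels' protocols. The authors deposited 1 table of normalized read counts, a signal in which each library's reads are divided by 1 size factor. The submitters' processing notes name bcl2fastq, STAR 2.5.2b, HTSeq, RSEM, DESeq2 (version given as 3.17) and the builds mm10 and GRCm38.p6; their roles, the annotation and the filters were not given in the sources used here. Whole reads were recovered from the steps between low values for 16 libraries, where 100% of the values tested were whole multiples within 0.02; in S20 the step of 1.00482 was too near 1 to show it. Reads recovered this way set the read totals, and edgeR and DESeq2 ran on them as alternatives only. No library had fewer than 16044078 reads.

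Values were tested with limma (lmFit, eBayes with trend) on log2(value + 1), which understates changes of low genes. Genes had to reach 10 in at least 3 libraries, which kept 12074 of 13501. All 17 libraries entered 1 model with 8 contrasts and a moderated F test. P-values are two-sided and adjusted over all tested genes (Benjamini-Hochberg, threshold 0.05). The tools were R 4.3.3, limma 3.58.1, edgeR 4.0.16 and DESeq2 1.42.0, and the scripts were tested on simulated data. Groups came from the labels. Every member was named; of the further pathway genes, the 6 with the smallest F-test p were named, with others for a stated reason. The members, gene lists and alternatives were chosen with earlier results of these data known. Alternatives were other pseudocounts (0.5 and 8), no filter, TMM scaling, edgeR, DESeq2, a model of the groups compared only, averaging the closest pairs, leaving out each library, and leaving out S25 with S27 or S30 with S31. Positions are from GENCODE vM21 (GRCm38), promoter windows from RefSeq.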

Additional observations from a re-analysis of the deposited data

Results flagged for a closer look

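Among 32 groups of 4 libraries examined, 1 held a library far from the rest: Arntl in knockout-donor cells, where S33 (467) lay above the other 3 (369 to 377) by a gap of 0.91 of the group's range; this exceeds Dixon's 95% limit for 4 values. Chance gives such a gap in about 1 in 20 groups. In the Trem2 difference of transplanted cells against that of microglia, 2 further pathway genes passed the interaction test. Bhlhe40 had an interaction of -1.90 on the log2 scale (limma, SE 0.444, adjusted p = 0.0254) and kept its call in 21 of 27 alternatives. Usp7, a deubiquitinase of cryptochromes, had -0.84 (limma, SE 0.199, adjusted p = 0.0270), kept in 16 of 27, with means of 989.8 ± 58.4 (SD, n = 3) and 723 ± 163 (n = 3) in wild-type and knockout 5xFAD microglia and 807 ± 86.6 (n = 4) and 1035 ± 68.3 (n = 4) with wild-type and knockout donors.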

How the results depend on the processing

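No paired analysis was possible because the columns outside the normal group carry no distinct replicate number. No called member value changed sign in any alternative, 360 alternative values of the called members kept their call and 68 lost it. Counts of members called moved by over 1.5 times, or from 0, as follows. For wild-type against knockout microglia (0) they were 1 with DESeq2 and 3 without S25 and S27. For the donor comparison (1) they were 2 with DESeq2, 0 in a model of those groups only, 0 with the closest pairs averaged, 0 without S30 and S31 and 2 without S25 and S27. For wild-type-donor cells against wild-type microglia (2) they were 1 with edgeR, 0 with pairs averaged and 0 without S30 and S31. For knockout-donor cells against knockout microglia (3) the count was 5 without S25 and S27, for wild-type-donor cells against knockout microglia (6) 3 with pairs averaged and 3 without S30 and S31, for the interaction (0) 3 without S25 and S27, and for any difference (4) 2 without S30 and S31. Smaller moves were 2 with no filter, 2 in the model of those groups, 2 with pairs averaged and 4 with DESeq2 for knockout-donor cells against knockout microglia, 5 with DESeq2, 5 with those groups only and 4 without S25 and S27 for wild-type-donor cells against knockout microglia, and 5 with edgeR, 5 with DESeq2, 3 with pairs averaged and 6 without S25 and S27 for any difference. Leaving out 1 library gave 0 to 0 members for wild-type 5xFAD against normal microglia, 0 to 2 for knockout against normal and for wild-type against knockout microglia, 0 to 3 for donors, 1 to 2, 2 to 5 and 4 to 7 for the 3 comparisons of transplanted cells with microglia in the order above, 0 to 1 for the interaction and 3 to 6 for any difference. Averaging pairs or leaving out libraries fits fewer samples, and without S25 and S27 the lone S26 is assumed to vary like the other groups. For the rest the cause was not tested. The number of all genes called also moved in many of these fits, as given below. The members' counts were not set against it, so their moves are no result about the members alone.

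Over all genes, in the order of wild-type 5xFAD against normal (457 called), knockout against normal (472), wild-type against knockout microglia (615), donors (814) and interaction (341), DESeq2 called 756, 1266, 997, 1695 and 875. Models of the groups compared gave 1757, 1, 278 and 67 for the first 4, and pairs averaged 247, 21, 167, 30 and 70. Without S26 the counts rose to 820, 4601, 3673, 1673 and 1666. Without S25 and S27 the counts were 692, 2, 233, 1382 and 161, and without S30 and S31 donors gave 15 and the interaction 155. Wild-type-donor cells against knockout microglia (4238) gave 2644 with those groups only, 2118 with pairs averaged, 2184 without S25 and S27 and 2719 without S30 and S31, and wild-type-donor cells against wild-type microglia (3399) 2044 with pairs averaged. TMM scaling changed no member's call but turned the split of donor calls from 453 higher and 361 lower to 366 and 624. Members with few reads, Per3 above all (35 reads in S34), are the least precise. The same alternatives, applied after seeing the data to Tsc22d3 and the named pathway genes, changed the sign of Tsc22d3 only, without S25 and S27: -0.26 in wild-type-donor and -0.14 in knockout-donor cells against knockout microglia.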
